A study of Mus musculus with 19 samples.

Results

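Loss of the DNA methyltransferase gene Dnmt3a was examined in granulocyte-monocyte progenitors (GMP) that carry PR, read here as the PML-RARA fusion named in the title of the series because the labels do not spell it out. The members were chosen by sample title and are 6 of the 19 exon arrays of the series: 4 arrays of PR+/- Dnmt3a-/- GMP and 2 arrays of PR+/- GMP. Both groups are labelled PR+/-, and the first of them also lacks Dnmt3a. The same loss without PR is represented by 3 arrays of Dnmt3a-/- GMP and 4 arrays of wild-type GMP on the C57Bl/6J background, and these 7 arrays share no sample with the 6. For the PR+/- arrays the labels give bone marrow as the tissue, and the sorted cell type appears only in the titles. They give no strain, age, promoter or allele for PR, no exon for the Dnmt3a deletion and no treatment, and they leave unsaid whether each array stands for another mouse, so the p-values measure the spread between these samples, which may be technical.

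Dnmt3a places new methyl groups on cytosines that precede guanines (CG), and Dnmt3b encodes the other main enzyme of this kind. PML-RARA joins the PML protein to the retinoic acid receptor alpha and occurs in acute promyelocytic leukaemia, a disease of cells held at an early granulocytic stage. GMP give rise to neutrophils and monocytes, and with maturation along the neutrophil path they switch on first the primary (azurophil) granule proteins and then the secondary granule proteins.

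Each value below is a log2 intensity, the mean over the probe sets that carry only the symbol of that gene, and a difference is PR+/- Dnmt3a-/- minus PR+/- on this scale, given with its standard error (SE). All 15781 measured genes were tested with limma in 1 fit of the 13 GMP arrays (9 residual degrees of freedom), with Benjamini-Hochberg adjustment and a threshold of 0.05. The median level of a germline gene list, 3.57, served as background. Markers of GMP were read on the 6 arrays alone. No other cell type was set beside them, so they cannot tell GMP from other progenitors. The 15 measured GMP markers lay at percentiles 65.8 to 99.99 of all genes, and Mpo, the myeloperoxidase of primary granules, lay between 12.6 and 12.9 on the 6 arrays.

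PR+/- Dnmt3a-/- replicates 1 and 2 stood apart from replicates 3 and 4. The mean of 24 immediate early and heat shock genes was 8.07, 8.0, 6.12 and 6.10 in PR+/- Dnmt3a-/- replicates 1 to 4, against 6.35 and 6.22 in PR+/- GMP. Wild-type replicates 1 and 2 were high as well, at 7.36 and 7.34, against 6.28 and 6.27 in replicates 3 and 4 of that group. The average over 2 Y-linked genes was 6.98, 3.12, 6.75 and 7.01 in PR+/- Dnmt3a-/- replicates 1 to 4 and 6.87 and 6.73 in PR+/- GMP, so replicate 2 alone was low. Without PR it was 2.54 to 2.91 in Dnmt3a-/- GMP, and 6.84, 7.04, 6.95 and 3.25 in wild-type GMP. Read as sex, low levels stand for female cells. PR+/- Dnmt3a-/- replicate 2 then came from another mouse than the rest of its group. Without PR, sex and Dnmt3a loss then largely coincide, so they cannot be told apart there or in the difference between the effects with and without PR. The part of these differences in the results was not tested beyond leaving out arrays and fitting each level as a covariate.

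Dnmt3a itself was lower in every PR+/- Dnmt3a-/- array, at 6.05, 6.26, 6.22 and 5.82, against 7.07 and 7.20 in PR+/- GMP. The groups did not overlap, and the difference of -1.05 ± 0.16 (SE) is 2.06-fold on the linear scale, with a limma adjusted p of 0.0703. Of its 31 probe sets, 25 were lower and 17 did not overlap between the groups, and their differences ranged from -4.23 to 1.22. Since the deleted exons are not given, the mean over the gene checks the label only in part. The adjusted p was 0.00908 when all 19 arrays shared 1 fit and 0.478 when the 6 arrays were fitted alone. Without PR Dnmt3a fell too, to 6.06, 6.11 and 6.22 in Dnmt3a-/- GMP against 7.47, 7.39, 7.30 and 7.59 in wild-type GMP (-1.31 ± 0.14, limma adjusted p = 0.000924), and the difference between the effects with and without PR was 0.26 ± 0.21 (95% interval -0.21 to 0.73, limma adjusted p = 0.573). Dnmt3b was higher at 6.34, 6.65, 6.36 and 6.36 in PR+/- Dnmt3a-/- GMP, against 5.63 and 5.86 in PR+/- GMP (0.68 ± 0.16, limma adjusted p = 0.254). The other 14 of the 16 measured genes of the methylation machinery list had an unadjusted p above the threshold.

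No gene passed the adjusted threshold between PR+/- Dnmt3a-/- and PR+/- GMP (0% of those tested), and the lowest limma adjusted p, 0.0606, belonged to Tfpi and Thbs4. At an unadjusted p under 0.05 there were 1458 genes (9.24%), of which 512 were higher (3.24%) and 946 lower (5.99%) in PR+/- Dnmt3a-/- GMP. Without PR+/- replicate 1 this count was 741. The arrays of the 2 groups did not overlap for 3250 genes (20.6%), 1307 higher (8.28%) and 1943 lower (12.3%). The fit of all 19 arrays called 21 genes (0.133%), 12 higher and 9 lower, and the fit of the 6 arrays alone called 0, with 1256 at an unadjusted p under 0.05. The members are therefore given below by their values and directions.

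The 10 leading genes that were higher in PR+/- Dnmt3a-/- GMP, taken in order of the moderated t among those whose groups did not overlap, were led by Tfpi, which encodes the inhibitor of the tissue factor pathway of coagulation. Tfpi was 6.87, 6.76, 7.22 and 7.37 in PR+/- Dnmt3a-/- GMP, against 4.83 and 4.72 in PR+/- GMP. All 13 of its probe sets were higher and 12 did not overlap, and the difference of 2.28 ± 0.31 is 4.87-fold. Without PR, Tfpi was 7.79, 7.48 and 6.42 in Dnmt3a-/- GMP and 6.04, 6.54, 6.37 and 6.58 in wild-type GMP, which overlapped (0.85 ± 0.28, limma adjusted p = 0.19). PR+/- GMP thus had the lowest Tfpi of the 4 groups.

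Grb10, an imprinted gene for an adaptor of insulin receptor signalling, was 7.13, 7.12, 6.89 and 7.27 in PR+/- Dnmt3a-/- GMP, against 6.03 and 6.23 in PR+/- GMP (0.97 ± 0.15, limma adjusted p = 0.0861). Mpzl1, a cell surface glycoprotein, was 6.37, 6.62, 6.40 and 6.15 against 5.11 and 5.10 in PR+/- GMP (1.28 ± 0.22). Rhobtb3 was 6.50, 7.12, 6.09 and 6.11 in PR+/- Dnmt3a-/- GMP against 4.86 and 5.38 in PR+/- GMP (1.34 ± 0.25). In each of these genes every PR+/- Dnmt3a-/- array lay above both PR+/- arrays. The others were Golm1, a Golgi membrane protein (0.98), Ppm1e, a protein phosphatase (0.99), Marveld2, the tight junction protein tricellulin (1.38), Krtcap3 (1.29), Ctnnd1, the cadherin-binding p120 catenin (0.73), and Stau2, which binds double-stranded RNA (0.86). Within PR+/- Dnmt3a-/- GMP, Marveld2 was 5.93 in replicate 1 and 4.86 in replicate 2, still above the 4.33 and 3.86 of PR+/- GMP.

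The 10 leading lower genes include Dnmt3a. Thbs4, a thrombospondin of the extracellular matrix, was 5.09, 4.26, 4.56 and 4.89 in PR+/- Dnmt3a-/- GMP, against 7.60 and 6.22 in PR+/- GMP, with all 22 probe sets lower (-2.21 ± 0.31, or 4.63-fold). Its level was 3.88 to 4.28 in Dnmt3a-/- GMP and 4.12 to 4.37 in wild-type GMP, so of the GMP arrays the PR+/- ones held the most Thbs4. The difference depended on PR+/- replicate 1: it was -1.52 without that array and -2.90 without PR+/- replicate 2. Smpdl3a, a phosphodiesterase related to acid sphingomyelinase, was 7.31, 7.08, 8.11 and 7.93 in PR+/- Dnmt3a-/- GMP, against 9.45 and 9.01 in PR+/- GMP (-1.63 ± 0.29, all 12 probe sets lower and not overlapping). S100a4, a calcium-binding protein of motile myeloid cells, was 8.67, 8.85, 7.83 and 8.68 against 10.36 and 9.70 in PR+/- GMP (-1.52 ± 0.29). Adgre1, which encodes a surface antigen of macrophages, was 5.41, 4.76, 5.03 and 5.08 against 7.26 and 5.97 in PR+/- GMP (-1.54 ± 0.30), and its difference was -0.90 without PR+/- replicate 1. Nfe2, a transcription factor of megakaryocytes and erythroid cells, was 8.21, 8.34, 8.54 and 8.41 against 9.14 and 9.05 in PR+/- GMP (-0.72 ± 0.15). Pcp4l1 (-0.96) and Wdr41 (-0.65) lay well above background, whereas Arxes1 and the olfactory receptor gene Olfr918 rested on 1 probe set each. Their PR+/- means, 3.61 and 3.68, barely exceeded background, and their PR+/- Dnmt3a-/- levels were below it, so no size of difference is given for them.

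**Figure D1:**
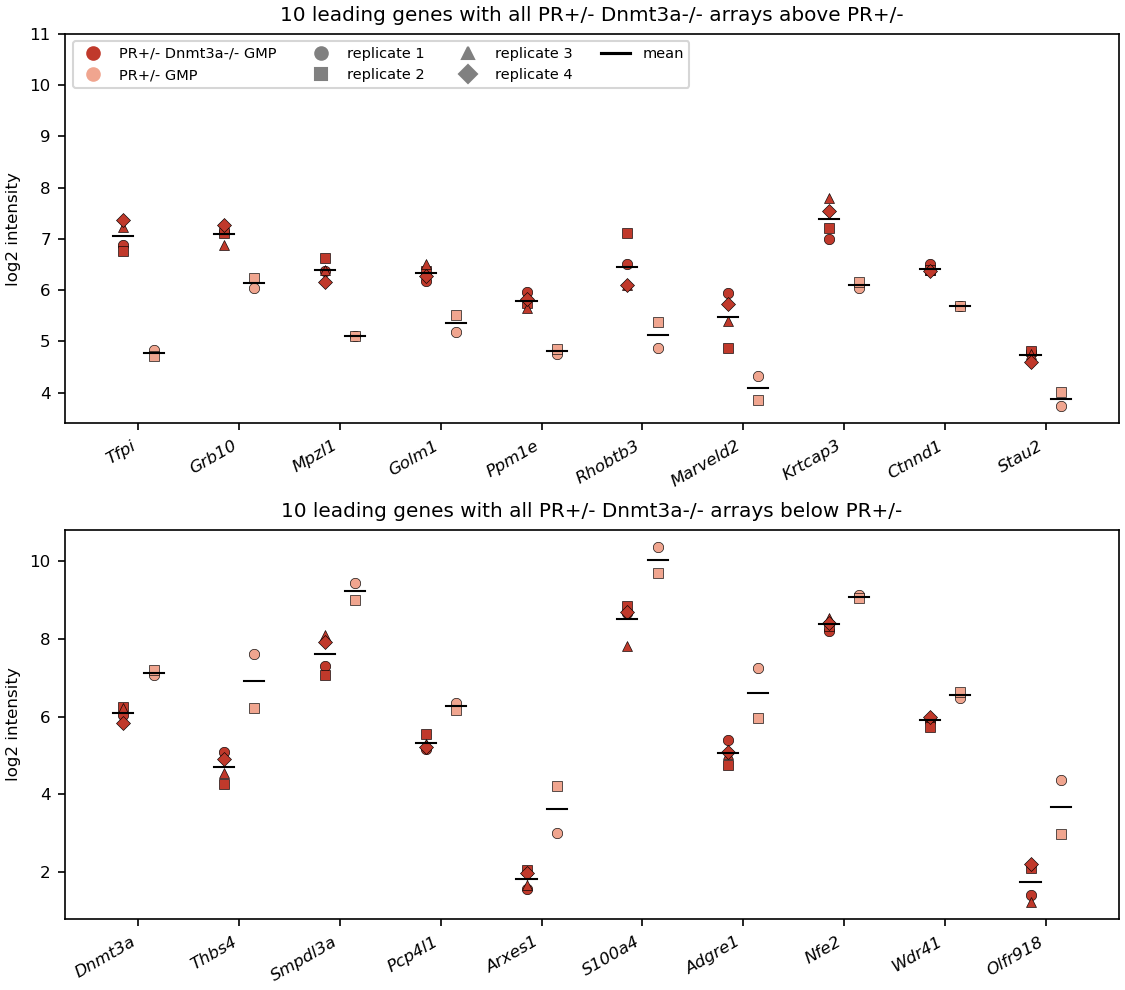
Log2 intensity (y axis) of the 10 leading higher genes (top) and the 10 leading lower genes (bottom), with 1 point per array, shaped by replicate number, and a line at each group mean. In all 20 genes the 4 PR+/- Dnmt3a-/- points, on the left, lie wholly above or wholly below the 2 PR+/- points, as the choice of genes requires, and the 2 PR+/- points lie far apart for Thbs4, Adgre1, Arxes1 and Olfr918.

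Genes were chosen whose groups did not overlap, so leaving out an array could not turn their direction. The 18 leading genes above background in both groups also kept it in every alternative processing. Of these, 14 passed the threshold in the fit of 19 arrays, which holds the same PR+/- arrays. That fit also called Eya1, a transcriptional coactivator (0.97), Dnah8, an axonemal dynein chain (1.38), Ppic, a cyclophilin (1.19), Amigo2, an adhesion protein (1.60), and 2 predicted genes. Dnah8, Krtcap3, Eya1 and Pcp4l1 were called without PR as well, in the same direction. There the difference between Dnmt3a-/- and wild-type GMP was 2.01 for Dnah8 (limma adjusted p = 0.00225), 1.42 for Krtcap3 (0.013), 0.87 for Eya1 (0.0459) and -0.86 for Pcp4l1 (0.0271). Dnmt3a and the 2 predicted genes were also called there in the same direction. S100a4 was called there in the opposite direction, at 1.53 (limma adjusted p = 0.0198) against -1.52 with PR.

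Because Dnmt3a acts on CG dinucleotides, the CG content upstream of the leading genes is shown as sequence. The 250 bases before the start of the first gene of each direction (RefSeq, build GRCm38.p6, with every CG in capitals and the rest in lower case, 5′ to 3′ on the strand of the gene) are as follows.
Tfpi, chr2:84476760-84477009, - strand: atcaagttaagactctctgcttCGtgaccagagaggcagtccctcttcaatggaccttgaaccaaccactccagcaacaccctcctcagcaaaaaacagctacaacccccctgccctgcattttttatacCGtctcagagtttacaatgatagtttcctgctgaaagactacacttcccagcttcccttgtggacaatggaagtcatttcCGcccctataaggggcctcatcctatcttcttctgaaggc
Thbs4, chr13:92794819-92795068, - strand: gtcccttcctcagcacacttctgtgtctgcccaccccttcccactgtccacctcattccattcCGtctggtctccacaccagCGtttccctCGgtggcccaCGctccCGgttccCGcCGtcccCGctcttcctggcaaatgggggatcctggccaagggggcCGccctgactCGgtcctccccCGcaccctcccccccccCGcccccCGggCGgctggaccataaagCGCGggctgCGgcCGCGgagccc
The Tfpi window holds 3 CG and that of Thbs4 holds 19, where the median of 12609 measured genes with such a window was 12 and 5.49% had none. The 9 leading higher genes with a window had a median of 20 CG, and the 7 leading lower genes 13. The 415 genes higher at an unadjusted p under 0.05 had a median of 14 and the 753 lower genes 12. No methylation was measured here, and the counts describe the sequence alone.

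Ctsg, the gene of the primary granule protease cathepsin G, differed widely between the arrays of PR+/- Dnmt3a-/- GMP. It was 7.96, 11.12, 6.59 and 7.56 in replicates 1 to 4, against 11.53 and 11.44 in PR+/- GMP. Replicate 2 lay near the PR+/- arrays and the others lay far below them, at all 9 probe sets of the gene. The 15 arrays of the other groups ranged from 9.49 to 11.95, so the 3 low arrays lay under every one of them. The difference over all 4 arrays was -3.18 ± 0.82 (limma adjusted p = 0.317). Without replicate 2, also the array of low Y-linked level, it was -4.12 with a limma adjusted p of 0.000182, and with replicates 3 and 4 alone -4.41 (6.7e-05). The Dnmt3a level of replicate 2, 6.26, lay with the other 3 arrays of its group. Its level of the p53 target gene Perp, given under the other observations, lay among the PR+/- arrays and above the GMP arrays without PR. The PR genotype was tested on none of the 4 arrays, replicate 2 included, and the values rest on their labels. Leaving out an array after its value was seen gives a description of that array rather than a separate test. Of the 8 annotated genes on each side, 13 were measured, with differences from -0.48 to 0.92 and no unadjusted p below 0.143. Mcpt2, Gzmd, Gzmg, Gzmf and Gzmc lay below the background of 3.57 on all 6 arrays, and Mcpt1, Gzme and Gzmn on most of them. In such genes a fall could hardly show. The nearest measured gene, Mcpt8, which encodes a basophil protease, was 11.96, 11.41, 11.95 and 12.00 in PR+/- Dnmt3a-/- GMP against 11.77 and 11.67 in PR+/- GMP. As background, a widely used mouse model expresses PML-RARA from the Ctsg locus. The labels do not say which model was used, and whether the allele bears on the Ctsg signal was not tested.

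**Figure D2:**
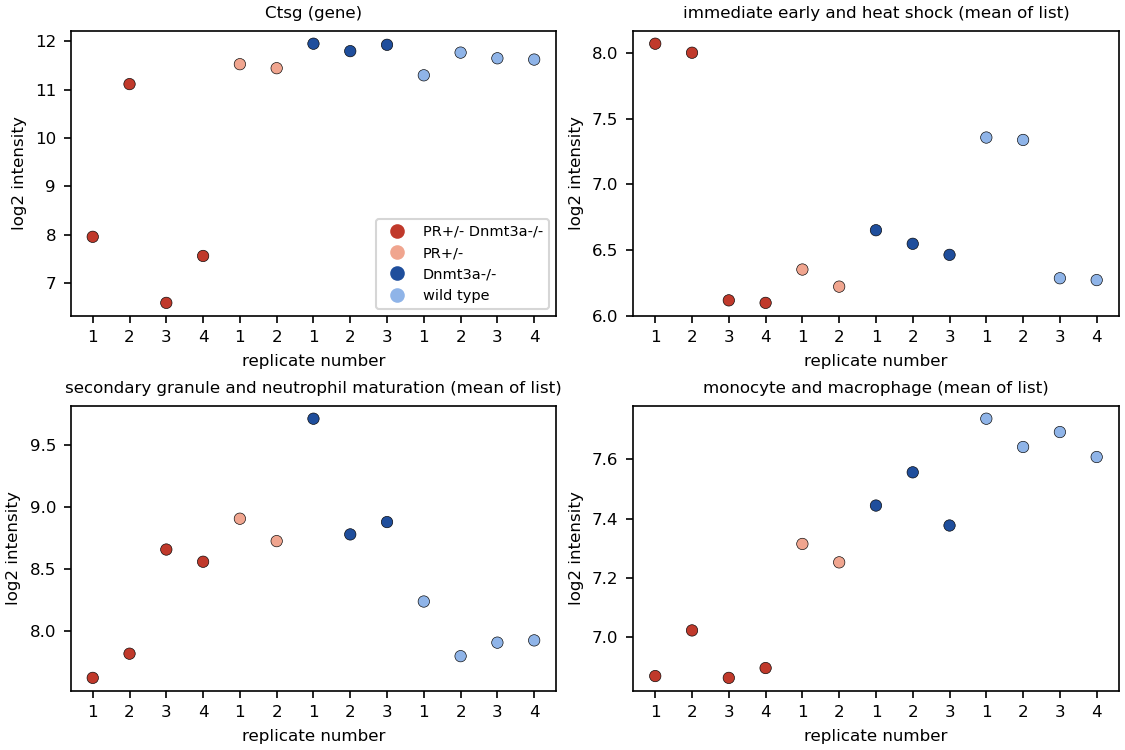
Log2 intensity (y axis) on each of the 13 GMP arrays (x axis, replicate number within the group, coloured by group) for Ctsg and for the mean of 3 gene lists. Ctsg is below 8 in PR+/- Dnmt3a-/- replicates 1, 3 and 4 only, the immediate early genes are high in PR+/- Dnmt3a-/- and in wild-type replicates 1 and 2, and the monocyte genes are lower in all 4 PR+/- Dnmt3a-/- arrays than on any other array.

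Genes of neutrophil maturation lay lower in PR+/- Dnmt3a-/- GMP, but mostly in the 2 arrays of high immediate early level. All 26 measured secondary granule and maturation genes had a negative difference, with a median of -0.65 beside -0.03 over all genes. The mean of the list was 7.62, 7.81, 8.66 and 8.56 in PR+/- Dnmt3a-/- replicates 1 to 4, against 8.90 and 8.72 in PR+/- GMP. With replicates 3 and 4 alone the median was -0.24. At an unadjusted p under 0.05, 4 members were lower and 0 higher, set against 5.99% and 3.24% of all genes, and none passed the adjusted threshold. The 4 were Chil3, a chitinase-like protein (-1.98), Lcn2, the iron-sequestering lipocalin (-0.92), Itgam, the CD11b integrin chain (-0.95), and Hp, haptoglobin (-0.65), of which Itgam and Hp were picked after their values were seen. Chil3 showed the split most plainly, with 5.52, 5.98, 8.89 and 8.25 in PR+/- Dnmt3a-/- replicates 1 to 4 and 9.10 and 9.17 in PR+/- GMP. Without PR the list had a median of 1.06 in the opposite direction.

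The 12 primary granule genes had a median of -0.34 over all 4 arrays and -0.01 with replicates 3 and 4 alone. Lyz2, lysozyme, was 9.04, 9.12, 9.85 and 9.93 in PR+/- Dnmt3a-/- GMP, against 10.65 and 10.20 in PR+/- GMP (-0.94 ± 0.28). The 29 genes of mitochondrial respiration behaved alike in this respect, with a median of -0.25 over all arrays and 0.02 without replicates 1 and 2, as did the 12 ribosomal protein genes (-0.21 and 0.02).

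Monocyte and macrophage genes differed from these in that the 4 arrays lay close together. The mean of 21 genes was 6.87, 7.02, 6.86 and 6.90 in PR+/- Dnmt3a-/- GMP, against 7.31 and 7.25 in PR+/- GMP, 7.38 to 7.56 in Dnmt3a-/- GMP and 7.61 to 7.74 in wild-type GMP. The median difference was -0.29, -0.34 with replicates 3 and 4 alone, -0.19 with probe set medians and -0.15 with quantile normalisation. At an unadjusted p under 0.05, 8 were lower and 1, Cd180, higher, set against 5.99% and 3.24% of all genes, and 0 passed the adjusted threshold. S100a4 and Adgre1 are among the 8, as is Ly86, whose protein pairs with Cd180 at the cell surface, at 6.74, 7.13, 6.85 and 6.54 in PR+/- Dnmt3a-/- GMP against 7.28 and 8.19 in PR+/- GMP (-0.92 ± 0.25, and -0.46 without PR+/- replicate 2). Csf1r, through which macrophage colony-stimulating factor signals, had a difference of -0.01. In sorted cell RNA, fewer cells of a type and less RNA per cell cannot be told apart.

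Of 24 stem and multipotent progenitor genes, 17 had a positive difference, where 44.4% of all genes did. At an unadjusted p under 0.05, 6 were higher and 1 lower, set against 3.24% and 5.99% of all genes. The median of 0.13 was 0.07 with replicates 3 and 4 alone, 0.02 with the immediate early level as a covariate and 0.05 without PR+/- Dnmt3a-/- replicate 2, and 0.24 without replicate 3 of that group. Meis1, a homeobox gene of stem and progenitor cells, was 5.03, 5.38, 5.36 and 5.29 in PR+/- Dnmt3a-/- GMP, against 3.83 and 4.57 in PR+/- GMP (1.07 ± 0.38, and 0.70 without PR+/- replicate 1). Eya1 was 4.96, 5.44, 5.40 and 5.24 against 4.13 and 4.44 in PR+/- GMP (0.97 ± 0.20). Ly6a, the antigen Sca-1, near background, ran the other way (-0.68 ± 0.23). For Meis1 and Eya1 every PR+/- Dnmt3a-/- array lay above both PR+/- arrays.

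Of 14 erythroid genes 13 had a positive difference, with a median of 0.29. That median was 0.39 with replicates 3 and 4 alone and 0.12 without PR+/- replicate 1. At an unadjusted p under 0.05, 1 was higher, where 3.24% of all genes were: Tfrc, the transferrin receptor, at 7.76, 7.65, 7.39 and 8.07 in PR+/- Dnmt3a-/- GMP and 6.89 and 7.43 in PR+/- GMP, which overlapped (0.56, and 0.29 without PR+/- replicate 1). The 18 megakaryocyte and platelet genes were split, with 9 positive and 9 negative. Itga2b, the CD41 integrin chain, was 7.27, 7.13, 7.13 and 7.65 in PR+/- Dnmt3a-/- GMP, against 8.53 and 7.75 in PR+/- GMP (-0.84 ± 0.25, and -0.46 without PR+/- replicate 1). Among 18 basophil and mast cell genes 3 were higher (Il13, Kit and the receptor chain gene Csf2rb, the last picked after its value was seen) and 1 lower (Prss34) at an unadjusted p under 0.05, set against 3.24% and 5.99% of all genes. Kit, the stem cell factor receptor, was 9.33, 9.56, 9.30 and 9.31 in PR+/- Dnmt3a-/- GMP, against 8.86 and 9.13 in PR+/- GMP (0.38 ± 0.14, and 0.24 without PR+/- replicate 1). The cytokine gene Il13 was 6.63, 5.44, 4.64 and 4.95 in PR+/- Dnmt3a-/- GMP, against 3.93 and 3.92 in PR+/- GMP (1.49 ± 0.39), highest in the 2 arrays of high immediate early level. The mean of this list lay between 6.81 and 7.17 in PR+/- Dnmt3a-/- GMP, against 6.88 and 6.85 in PR+/- GMP.

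Markers of lymphoid cells had low list means on all 6 arrays, though above the background of 3.57. The mean of 13 B cell genes was 4.37 to 4.52 in PR+/- Dnmt3a-/- GMP and 4.46 and 4.71 in PR+/- GMP. That of 21 T and NK cell genes was 4.81 to 4.89 in PR+/- Dnmt3a-/- GMP and 4.96 and 4.98 in PR+/- GMP. In at least 1 of the 2 groups, 11 of the B cell genes and 16 of the T and NK cell genes exceeded background. Of 37 cell cycle genes 7 had a positive difference, where 44.4% of all genes did. The median was -0.13, and 0.02 with quantile normalisation. At an unadjusted p under 0.05, 2 were lower, which is no more than the 5.99% of all genes: Cdkn2c, an inhibitor of cyclin-dependent kinases (-0.83), and Aurka, a mitotic kinase (-0.59). Of 21 genes of the PML-RARA and retinoid list 0 were higher and 2 lower at an unadjusted p under 0.05, where 3.24% and 5.99% of all genes were. These were Rara (6.13, 6.28, 5.75 and 6.06 in PR+/- Dnmt3a-/- GMP, 6.82 and 6.40 in PR+/- GMP, -0.56 ± 0.24, and -0.35 without PR+/- replicate 1) and the retinoic acid carrier gene Crabp2 (-0.47, and -0.28 without PR+/- replicate 2). Among 20 imprinted genes, 2 were higher, Grb10 and Impact, and 1 lower, Phlda2 (-0.70, picked after its value was seen), at the same unadjusted threshold. Of all genes, 3.24% were higher and 5.99% lower there. Impact was 7.26, 6.50, 6.78 and 7.16 in PR+/- Dnmt3a-/- GMP against 5.54 and 5.90 in PR+/- GMP (1.20 ± 0.29). At that threshold the interferon-stimulated list had 0 higher and 2 lower of 28 (Bst2 and Igtp), and the germline list 1 higher and 1 lower of 24 (Gdf3 and Dppa3), near the shares of all genes (3.24% higher and 5.99% lower). In none of the 28 lists did a member pass the adjusted threshold.

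**Figure D3:**
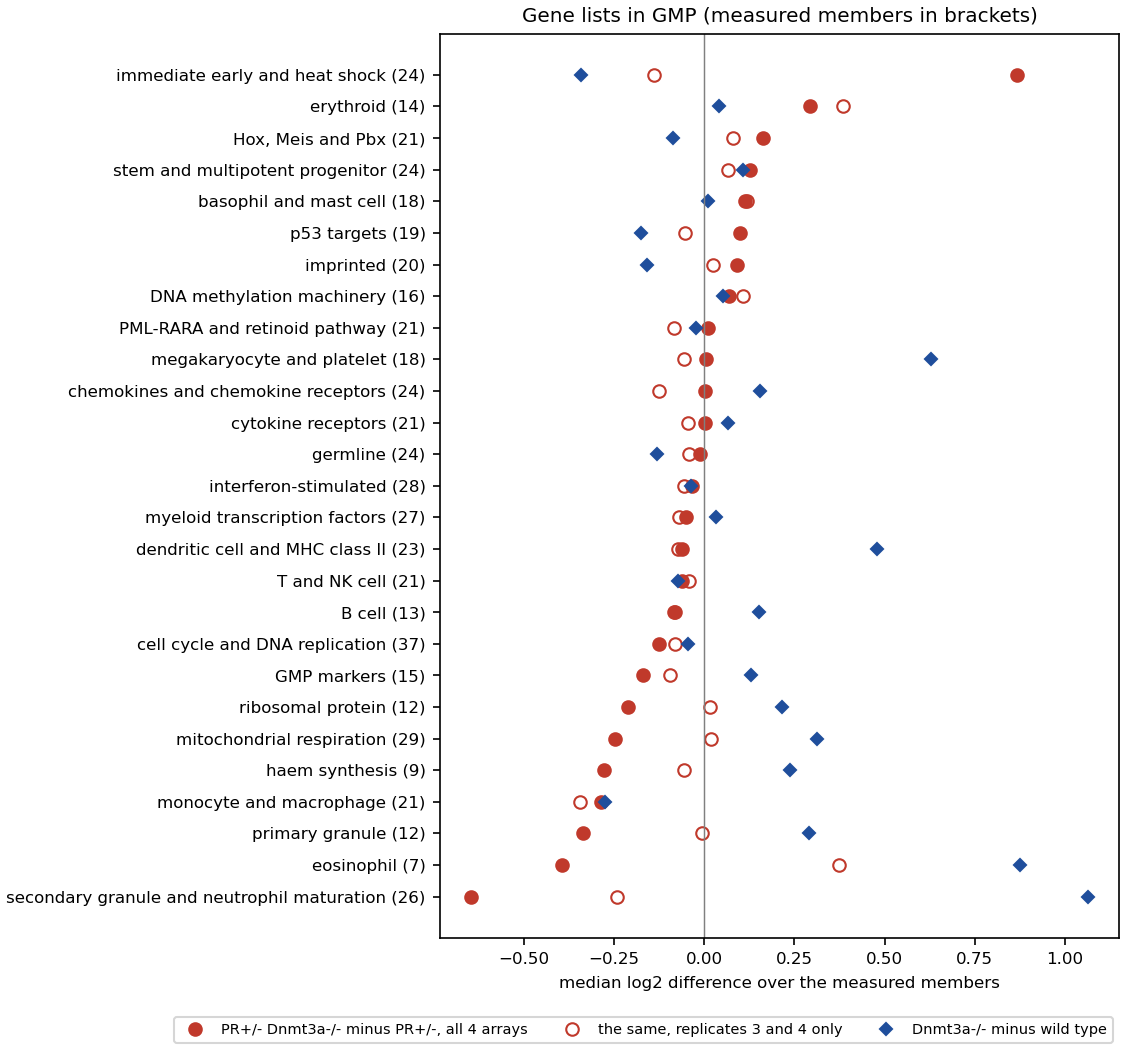
Median log2 difference (x axis) over the measured members of each gene list (y axis) for PR+/- Dnmt3a-/- minus PR+/- GMP with all 4 arrays (filled circles) and with replicates 3 and 4 only (open circles), and for Dnmt3a-/- minus wild-type GMP (diamonds). The secondary granule list lies at -0.65, -0.24 and 1.06, the monocyte list at -0.29, -0.34 and -0.27, and the immediate early list at 0.87, -0.14 and -0.34.

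The same loss without PR was set beside these values. Between Dnmt3a-/- and wild-type GMP, 101 genes passed the threshold (0.64%), 70 higher (0.444%) and 31 lower (0.196%). This count was unstable. It was 49, 50 and 22 without wild-type replicates 1, 3 and 4, 17, 18 and 59 without Dnmt3a-/- replicates 1, 2 and 3, 61 without either PR+/- replicate and 67 without PR+/- Dnmt3a-/- replicate 4. It was 19 with the Y-linked level as a covariate, a level that separates Dnmt3a-/- from 3 of the 4 wild-type arrays. In the separate PR+/- arrays, 66 of the 101 had the same sign (65.3%, where 45.5% of all genes had the same sign in both comparisons). Of the 101, 32 had it with an unadjusted p under 0.05, where 638 of all 15781 genes did. The opposite sign was found in 35 of the 101. It came with an unadjusted p under 0.05 in 8, all called higher without PR, where 820 of all genes had it so. The share was 24 of 31 for the lower genes, Dnmt3a itself among them, and 42 of 70 for the higher genes. Of all genes, 44.4% had a positive difference with PR, so a shared sign is more common for lower genes by that alone. The 31 lower genes had a median of -0.32 with PR and -0.87 without it, and the 70 higher genes 0.11 and 1.23. All 101 were chosen by passing the threshold without PR, and that choice alone favours smaller differences with PR. These medians therefore do not show that PR weakens the effect.

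**Figure D4:**
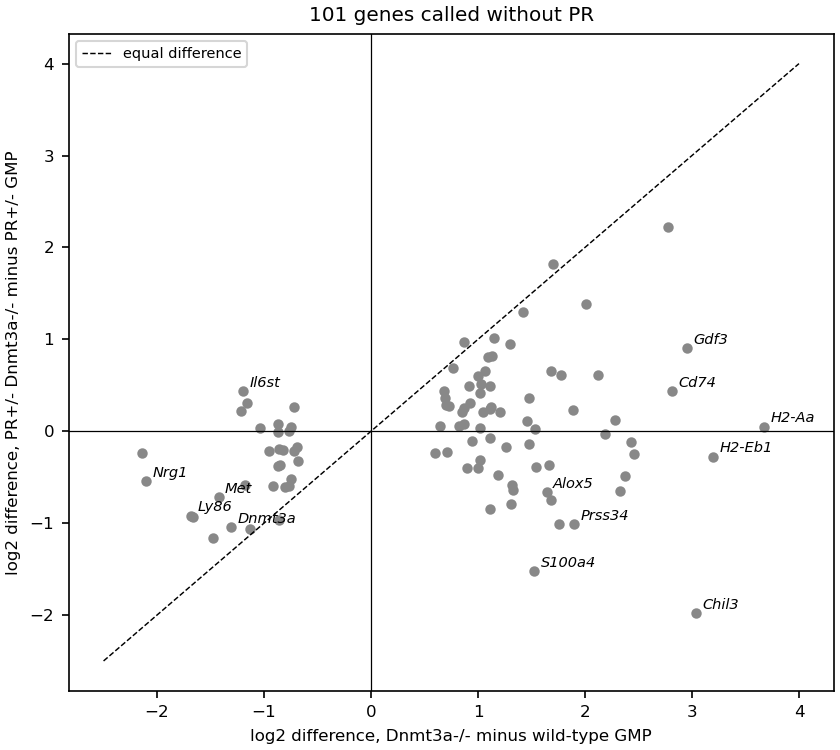
For each of the 101 genes called between Dnmt3a-/- and wild-type GMP, the log2 difference with PR (y axis) against that without PR (x axis), with selected genes named and a dashed line where both are equal. Most genes higher without PR lie below the dashed line, which their choice by the comparison without PR favours by itself. The MHC class II genes H2-Aa, H2-Eb1 and Cd74 lie near 0 on the y axis.

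Genes that were lower in Dnmt3a-/- GMP mostly ran the same way with PR. Ly86 differed by -0.92 ± 0.25 with PR and by -1.68 ± 0.22 without it, Met, the hepatocyte growth factor receptor, by -0.71 ± 0.20 and -1.42 ± 0.17, and Klrb1f, a lectin-like receptor of natural killer cells, by -1.16 ± 0.29 and -1.48 ± 0.26. In these 3 genes the PR+/- Dnmt3a-/- arrays lay below both PR+/- arrays, though for Ly86 the difference with PR was -0.46 without PR+/- replicate 2. Nrg1, the growth factor neuregulin, differed by -0.54 ± 0.23 with PR (-0.26 without PR+/- replicate 2) and by -2.10 ± 0.21 without it, and was 4.49 to 4.65 in PR+/- Dnmt3a-/- GMP, 4.80 and 5.36 in PR+/- GMP, 4.88 to 5.38 in Dnmt3a-/- GMP and 6.73 to 7.60 in wild-type GMP. Of 19 named genes called without PR and refitted with each array left out, Cd74, Gdf3, H2-Eb1, Ly86, Met and Nrg1 passed each time. Klrb1f lost its call in 6 of the 13 refits.

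The test of the difference between the effects with and without PR called 5 genes (0.0317%), with 2209 at an unadjusted p under 0.05: H2-Eb1, Alox5, Prss34, S100a4 and Gdf3, all negative. H2-Eb1, a chain of the MHC class II molecule that presents antigen, was 4.88, 5.47, 6.20 and 5.58 in PR+/- Dnmt3a-/- GMP and 5.39 and 6.23 in PR+/- GMP, which overlapped (-0.28, 95% interval -0.97 to 0.41, and 0.14 without PR+/- replicate 2). It was 8.35, 8.69 and 8.84 in Dnmt3a-/- GMP, against 5.61, 5.33, 5.36 and 5.41 in wild-type GMP (3.20 ± 0.27), and the effects differed by -3.47 ± 0.41 (limma adjusted p = 0.00769). Cd74, the invariant chain that escorts class II molecules, ran alike, with 5.13, 5.97, 6.06 and 5.87 in PR+/- Dnmt3a-/- GMP, 4.59 and 6.05 in PR+/- GMP, 8.14, 8.30 and 8.42 in Dnmt3a-/- GMP and 5.20 to 5.69 in wild-type GMP. Its effects of 0.44 with PR (-0.30 without PR+/- replicate 1) and 2.82 without PR differed by -2.38 ± 0.46, which missed the threshold (limma adjusted p = 0.118). H2-Aa, another class II chain, had effects of 0.05 ± 0.66 (-0.80 without PR+/- replicate 1) and 3.67 ± 0.58, and the difference between them also missed it (limma adjusted p = 0.165). The call of H2-Aa without PR was lost when wild-type replicate 4 or any one Dnmt3a-/- array was left out. Of the 23 members of the dendritic cell and MHC class II list, 8 were called higher without PR, where 0.444% of all genes were. With PR no gene at all was called, so the count of 0 there says nothing about these members.

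Alox5, the 5-lipoxygenase of leukotriene synthesis, was 6.30, 6.61, 7.04 and 6.54 in PR+/- Dnmt3a-/- GMP, against 7.17 and 7.41 in PR+/- GMP, and 7.73, 7.61 and 7.33 in Dnmt3a-/- GMP, against 5.73, 6.00, 5.99 and 5.92 in wild-type GMP. Its effects of -0.66 with PR and 1.64 without differed by -2.31 ± 0.26 (limma adjusted p = 0.00769). Prss34, a basophil and mast cell protease gene, was 7.23, 8.09, 7.97 and 7.69 in PR+/- Dnmt3a-/- GMP, against 8.48 and 9.04 in PR+/- GMP, and 11.60, 11.76 and 11.23 in Dnmt3a-/- GMP, against 9.35 to 10.05 in wild-type GMP (difference of the effects -2.91 ± 0.36, limma adjusted p = 0.00843). S100a4 was 9.52 to 10.22 in Dnmt3a-/- GMP, against 8.23 to 8.59 in wild-type GMP, opposite in direction to its values with PR (-3.05 ± 0.39, limma adjusted p = 0.00976). In these 3 genes PR+/- Dnmt3a-/- GMP lay below PR+/- GMP while Dnmt3a-/- GMP lay above wild-type GMP. Gdf3, a growth factor of the TGF-beta family active in pluripotent cells, was higher in both settings. It was 7.60, 7.48, 7.86 and 7.46 in PR+/- Dnmt3a-/- GMP, against 6.76 and 6.63 in PR+/- GMP, and 7.97, 7.96 and 8.11 in Dnmt3a-/- GMP, against 5.20, 4.70, 4.86 and 5.48 in wild-type GMP. The effect with PR, 0.91 ± 0.20, was smaller than the 2.95 ± 0.18 without it (difference -2.04 ± 0.27, limma adjusted p = 0.0132).

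**Figure D5:**
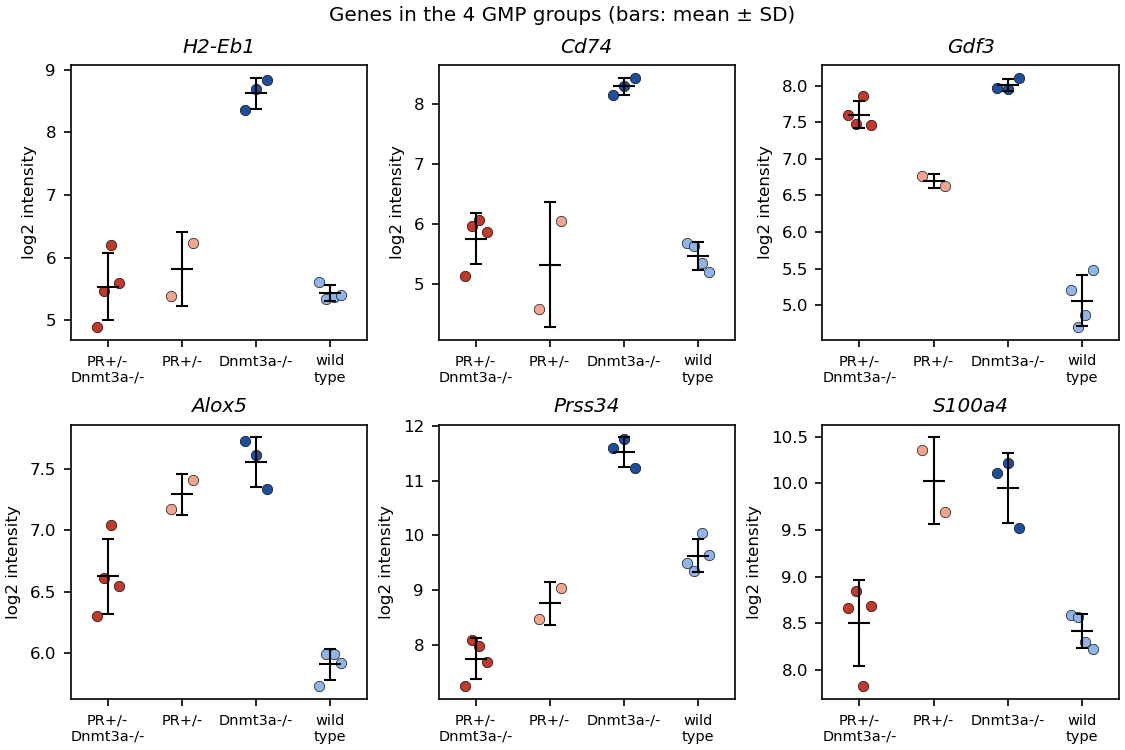
Log2 intensity (y axis) of 6 genes in the 4 GMP groups (x axis), with 1 point per array and bars for the mean ± SD. H2-Eb1 and Cd74 are high in Dnmt3a-/- GMP only, Gdf3 is high in both groups without Dnmt3a, and Alox5 and S100a4 are high in PR+/- and in Dnmt3a-/- GMP.

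The calls of H2-Eb1 and Alox5 held with each of the 13 arrays left out in turn. Prss34 lost its call without PR+/- replicate 2 (limma adjusted p = 0.0631), S100a4 without PR+/- replicate 1 (0.0921), and Gdf3 without either PR+/- replicate (0.109 and 0.0654) or without Dnmt3a-/- replicates 2 or 3 (0.0517 and 0.0573). Without the 4 GMP arrays of highest immediate early level, a choice made after seeing the data, all 5 calls were lost (limma adjusted p = 0.0872 for H2-Eb1, Alox5, Prss34 and S100a4 and 0.187 for Gdf3), with effects of -3.46 to -1.88. Gdf3 was also lost with the immediate early level as a covariate (0.0693) and without PR+/- Dnmt3a-/- replicates 1 and 2 (0.0873), S100a4 with quantile normalisation (0.0674) and Prss34 in the fit of all 19 arrays (0.0804). With the Y-linked level as a covariate, which separates Dnmt3a-/- from 3 of the 4 wild-type arrays, no gene was called, and H2-Eb1 and Alox5 had limma adjusted p-values of 0.0502 with effects of -3.50 and -2.29. The PR+/- arrays carry titles of another style than the 7 arrays without PR and no strain, and the titles name no array run. For levels set across these groups, a difference of run or strain, if there was one, cannot be told apart from PR.

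The windows before the starts of the 2 genes with the lowest adjusted p of this test are shown in the same form, and may be set against that of Thbs4 above.
H2-Eb1, chr17:34305617-34305866, + strand: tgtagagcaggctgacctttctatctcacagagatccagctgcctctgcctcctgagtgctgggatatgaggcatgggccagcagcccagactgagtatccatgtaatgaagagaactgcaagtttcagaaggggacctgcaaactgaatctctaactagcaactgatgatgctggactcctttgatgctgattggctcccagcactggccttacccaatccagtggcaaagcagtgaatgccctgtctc
Alox5, chr6:116461179-116461428, - strand: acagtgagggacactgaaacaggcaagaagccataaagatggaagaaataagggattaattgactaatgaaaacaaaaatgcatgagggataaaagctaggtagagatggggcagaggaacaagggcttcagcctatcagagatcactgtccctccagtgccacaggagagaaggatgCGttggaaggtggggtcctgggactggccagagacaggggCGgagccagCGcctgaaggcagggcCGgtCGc
The H2-Eb1 window holds 0 CG and that of Alox5 holds 5. The 55 genes called higher without PR that had a window held a median of 5 CG, and 36.4% held at least 10, where 57.4% of all measured genes did. The 25 called lower held a median of 10.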

How the data were processed

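RNA from sorted progenitors was purified with TRIzol, amplified with WT-Ovation and hybridised to mouse exon arrays, per the labels' protocols. The authors deposited 1 linear intensity per probe set and array (1.34 to 16208; array medians 53.0 to 56.8). Per the submitters' processing notes, the tools were RMA and Partek and the build mm9, with neither step nor version given. The log2 of each deposited intensity was taken, with no further normalisation. Of 194293 probe sets, 179496 carried 1 gene symbol, 1328 several and 13469 none, and averaging the first kind per symbol gave 15781 genes (median 9 probe sets). Of the symbols, 13727 were found in the GRCm38.p6 gene table, 2039 were updated and 37 kept. No filter on dim genes was set, and the number of arrays limits the precision.

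Groups followed the titles. The 13 GMP arrays were fitted with limma 3.58.1 (lmFit, eBayes, two-sided) in R 4.3.3, since 2 PR+/- arrays leave little spread of their own, and Benjamini-Hochberg adjustment covered all genes. Members, lists, the named genes and the choice of this fit were made with earlier results of these data known. Named were Dnmt3a, 10 genes in each direction by moderated t among genes that did not overlap and lay above background, 2 members of each list by moderated t, the 10 genes of largest difference in each direction called without PR, and 5 in each direction of the difference between both effects, leaving out predicted genes. Tested on simulated data with 15781 genes, the fit recovered 67 of 100 genes changed by 1 on the log2 scale and 96 of 100 changed by 2, with 9 false calls. The simulated noise was independent between genes. It lacked the differences between replicates that whole gene lists share here, so these counts need not hold for the real arrays. Alternatives were other fits, covariates, probe set summaries, scalings, filters, array weights and the leaving out of arrays. Both PR+/- groups hold replicates numbered 1 and 2, but the deviations of same-numbered arrays correlated with r = 0.0774 and 0.0169 across genes, so they were not taken as pairs. The CMP arrays entered only the fit of all 19 arrays.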

Additional observations from a re-analysis of the deposited data

Results flagged for a closer look

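Within PR+/- Dnmt3a-/- GMP, 1 array stood apart from the other 3 by Dixon's test in 7 of 115 groups of values tested, where chance alone gives about 1 in 20. The outlying values were 6.50 for Ctnnd1 and 3.99 for Tubb3 (replicate 1), 9.56 for Kit and 6.65 for Dnmt3b (replicate 2), 7.19 for the mean of the cytokine receptor list (replicate 3), 7.14 for that of the methylation machinery list (replicate 1) and 3.12 for that of the Y-linked list (replicate 2).

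The effect of Dnmt3a loss differed between PR+/- and other GMP, by the limma test of the difference, for H2-Eb1 (-3.47), S100a4 (-3.05), Prss34 (-2.91), Alox5 (-2.31) and Gdf3 (-2.04, all on the log2 scale). The first 4 were lower on average in PR+/- Dnmt3a-/- than in PR+/- GMP and higher in Dnmt3a-/- than in wild-type GMP, and Gdf3 was higher in both settings.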

How the results depend on the processing

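Between PR+/- Dnmt3a-/- and PR+/- GMP, 0 genes passed in the reported fit and 147 with the replicate block, 21 with all 19 arrays, 4 without dim genes, 3 with array weights or the immediate early level as a covariate, 2 without PR+/- Dnmt3a-/- replicates 1 and 2, with the brighter probe sets or with a robust variance trend, and 1 with probe set medians, quantile normalisation or without the 4 arrays of highest immediate early level, a choice made after seeing the data. The replicate block gives each replicate number of the PR+/- arrays its own level. Numbers 3 and 4 occur only in PR+/- Dnmt3a-/- GMP, so the block compares replicates 1 and 2 of both groups alone. In PR+/- Dnmt3a-/- GMP these are the arrays of high immediate early level. Leaving out 1 array gave 0 to 3. Dnmt3a (-1.05, limma adjusted p = 0.0703) passed with all 19 arrays (-1.05), the replicate block (-0.98), without dim genes (-1.05) and with array weights (-1.08), and ranged from -1.11 to -0.96 with 1 array left out. Without PR the count of 101 became 205 with all 19 arrays, 161 without PR+/- Dnmt3a-/- replicates 1 and 2, 62 without the 4 arrays, 19 with the Y-linked covariate, 46 with medians, 52 with the brighter probe sets, 163 without dim genes and 1548 with array weights, and 17 to 116 with 1 array left out. The test of the difference called 25 genes with all 19 arrays (4 of the 5 among them), 8 with medians, 10 without dim genes, 40 with array weights, 0 with the Y-linked covariate, 4 without the 4 arrays (0 of the 5 among them), and 4 to 14 with 1 array left out. No gene passed between the PR+/- groups, so a value there kept its side by again not passing. Leaving out an array without PR does not change the difference between the PR+/- groups. Of 2468 refitted gene values, 2262 kept direction and side of the threshold. Among these the only gene to turn was the eosinophil gene Prg3 (-0.67), to 0.16 without replicates 1 and 2 or without the 4 arrays, and to 0.12 with the immediate early covariate. The cause was not tested. Of 756 refitted list medians, 48 moved beyond the replicate spread.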

Other observations

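The mean of the 7 eosinophil genes was 6.15, 5.95, 7.15 and 7.47 in PR+/- Dnmt3a-/- replicates 1 to 4, against 7.01 and 7.19 in PR+/- GMP, so the median difference of -0.39 became 0.37 with replicates 3 and 4 alone. Perp, a p53 target gene, was 8.66, 7.67, 6.74 and 7.75 in PR+/- Dnmt3a-/- GMP and 9.51 and 8.67 in PR+/- GMP, against 4.49 to 5.22 on the 7 GMP arrays without PR.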
